A study of Homo sapiens with 12 samples.

Results

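The transcripts described here are 10 genes that rise with activity of the ERK kinases: DUSP4, DUSP6, DUSP7, SPRY2, SPRY4, SPRED1, ETV4, ETV5, PHLDA1 and CCND1. They were taken by name, not by their measured values, as feedback and output genes of the pathway, although earlier results of these data were known. Each of the 10 was matched to 1 of the 60107 Ensembl gene identifiers in the table. Read counts came from 12 libraries of cells labelled U251P or U251T, with 3 vehicle libraries and 3 carmofur libraries of each. U251 is an established human glioblastoma cell line, and the sources used here do not say what P and T stand for. Vehicle was DMSO, and carmofur is a small molecule that inhibits acid ceramidase, the enzyme that splits ceramide. By the labels, all 4 groups were starved of serum for 16 h and then kept for 24 h in full medium with DMSO or carmofur. The medium held 10% FBS and 20 ng/ml of epidermal and basic fibroblast growth factors, so vehicle and treated cells were both collected under growth factor stimulation. The study's methods describe the treatment differently, with carmofur also present during starvation and with FBS medium in which no growth factor is listed. Which of these was used cannot be told from the files.

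In the ERK pathway, growth factor receptors recruit adaptor proteins that activate RAS, and RAS starts a relay of the kinases RAF, MEK and ERK. Active ERK switches on early transcription factors, ETS family factors and cyclin D1, and it also raises the transcription of its own inhibitors, so that the pathway limits itself. The levels of these inhibitors and of ETV4 and ETV5 are widely read as a record of recent ERK activity, and the pathway is commonly active in glioblastoma through altered receptors, NF1 loss or growth factors in the medium.

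Depth and cell markers differed between the labelled lines. Total counts were 3295045 to 6350873 per library in U251P and 383633 to 2817379 in U251T, so that U251T values rest on fewer reads. The libraries labelled U251T also stood apart in what they held. MT-RNR2, a mitochondrial ribosomal RNA, made up 8.99% to 11.6% of counts in the 6 U251P libraries and 0.332% to 0.578% in the 6 U251T libraries. Of 11 astroglial and glioma markers, 8 reached 10 counts in some library of each U251P group, against 4 and 5 in the U251T groups. NES and SOX2, which mark glioma cells with stem-like features, had 1512 to 2636 and 322 to 960 counts in U251P, and no more than 2 and 1 in U251T. Other markers of the same list went the other way. GFAP had 0 or 1 count in U251P and 8 to 154 in U251T, and VIM had 2516 to 3252 counts per 1000000 counts of the library (CPM) in U251P and 7046 to 13534 CPM in U251T. The whole list summed to 4111 to 5091 CPM in U251P. In U251T it summed to 11814 to 14316 CPM with vehicle and 8016 to 10068 CPM with carmofur. The fibroblast list of 4 genes summed to 18.8 to 23.5 CPM in U251P, and in U251T to 1744 to 2051 CPM with vehicle and 2306 to 2388 CPM with carmofur, while endothelial and oligodendroglial genes were near 0 in both. Both list sums thus differed between treatments in U251T without overlap. Most of the astroglial and glioma sum in U251T was VIM, so that sum follows this gene rather than the whole list. The epithelial list of 4 genes summed to 158 to 226 CPM in U251P and 5.32 to 17.7 CPM in U251T. The pseudogene MTCO3P13 had 0 or 1 count in each U251P library and 5955 to 30689 counts in the U251T libraries. The origin of the U251T libraries was not tested, nor whether reads of both lines were assigned to genes alike. Differences in level between the labelled lines are therefore given as differences between libraries, and the effect of carmofur was measured inside each line.

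In U251P, CCND1 was by far the most abundant of the 10 transcripts, followed by PHLDA1, ETV5 and DUSP6. Cyclin D1, the product of CCND1, partners CDK4 and CDK6 in early G1. PHLDA1 is a pleckstrin-homology-like protein induced by growth factors. The vehicle means were 579 CPM for CCND1, 362 CPM for PHLDA1, 136 CPM for ETV5 and 75.0 CPM for DUSP6, and the ranges of these 4 genes over 3 libraries did not overlap with each other or with the next gene. DUSP4 at 34.7 CPM, SPRED1 at 29.5 CPM, SPRY4 at 21.5 CPM, DUSP7 at 20.8 CPM, ETV4 at 15.5 CPM and SPRY2 at 13.6 CPM followed, and each overlapped its neighbour in this order. Reads were taken from the 3′ end of each transcript, so these CPM values do not scale with transcript length. Overlapping genes and the unstated counting rules may still affect the order across genes, which was not tested.

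**Figure D1:**
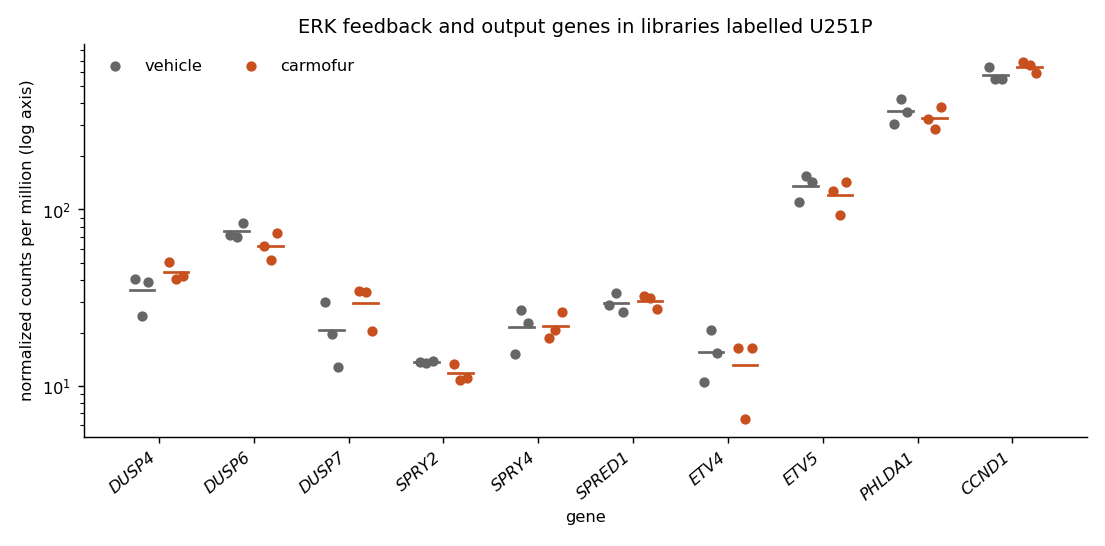
Normalized CPM (log axis) of the 10 genes in each of the 6 libraries labelled U251P. Points are libraries in replicate order, grey for vehicle and orange for carmofur, and bars are means of 3. Carmofur and vehicle points overlap for all genes except DUSP4 and SPRY2, and the means run from 11.7 CPM for SPRY2 to 648 CPM for CCND1.

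None of the 10 genes passed the test of carmofur against vehicle in U251P. All 10 were tested and 0 were called, 5 had a higher and 5 a lower fitted level with carmofur, and their median log2 fold change was -0.047. Among all 11426 genes tested the same quasi-likelihood test of edgeR called 0 (0%), with a median of -0.00075. Before adjustment, 0 members and 402 of all genes (3.52%) had a p-value under 0.05. DESeq2 likewise called 0 genes, and 235 of 24349 genes were under 0.05 before adjustment. That larger set did not pass through the edgeR filter on low counts, so the 2 shares are not alike. The 95% interval of the log2 fold change included 0 for each member, and the intervals bound what these libraries could have missed.

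The 3 phosphatases did not share a direction. DUSP6 is a cytoplasmic phosphatase that takes the activating phosphates off ERK and is itself a direct ERK target. It measured 71.5, 69.8 and 83.8 CPM with vehicle and 61.7, 51.8 and 73.3 CPM with carmofur. Of the carmofur libraries, 1 and 2 lay below every vehicle library and 3 lay within the vehicle range. The log2 fold change was -0.28 (standard error 0.14, 95% interval -0.57 to 0.011, n = 3 against 3), and edgeR's adjusted p-value was 0.999. DUSP4 is a nuclear phosphatase of ERK and related kinases. It measured 40.3, 25.0 and 38.9 CPM with vehicle and 50.3, 40.3 and 42.2 CPM with carmofur. The groups did not overlap, although carmofur replicate 2 exceeded vehicle replicate 1 by less than the rounding of these values. Its log2 fold change was 0.34 (standard error 0.17, 95% interval -0.026 to 0.70). DUSP7, a cytoplasmic ERK phosphatase related to DUSP6, had the largest fitted value of the 10 and also a wide spread. It measured 30.04, 19.6 and 12.8 CPM with vehicle and 34.3, 34.0 and 20.5 CPM with carmofur, and the groups overlapped. The log2 fold change was 0.52 (standard error 0.26, 95% interval -0.028 to 1.06). Vehicle libraries decided much of this value, which was 0.91 when vehicle replicate 1 was left out and 0.25 when replicate 3 was.

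Among the membrane-associated inhibitors, SPRY2 alone had groups that did not overlap. SPRY2 and SPRY4 are Sprouty proteins, which dampen signalling from receptors to RAS and RAF, and SPRED1 brings the RAS inactivator NF1 to the membrane. SPRY2 measured 13.6, 13.4 and 13.8 CPM with vehicle, a narrow range, and 13.3, 10.8 and 11.1 CPM with carmofur. All 3 carmofur libraries were lower than every vehicle library, replicate 1 by little. The log2 fold change was -0.21 (standard error 0.19), and these levels correspond to 45 to 86 reads a library. Groups that do not overlap were found for 2 of the 10 members, DUSP4 higher and SPRY2 lower, and for 952 of the 11426 genes tested (8.33%). SPRY4 measured 15.1, 26.7 and 22.6 CPM with vehicle and 18.7, 20.6 and 26.1 CPM with carmofur, and its log2 fold change was 0.028 (95% interval -0.41 to 0.47). SPRED1 measured 28.7, 33.6 and 26.2 CPM with vehicle and 32.3, 31.6 and 27.1 CPM with carmofur, and its log2 fold change was 0.055 (95% interval -0.27 to 0.38). For both of these the groups overlapped almost completely, and the fitted sign turned when 1 library was left out.

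The groups also overlapped for the ETS factors and the output genes. ETV4 and ETV5 are PEA3-family ETS transcription factors whose transcription and activity depend on ERK. ETV5 measured 110, 155 and 143 CPM with vehicle and 127, 92.5 and 143 CPM with carmofur, for a log2 fold change of -0.17 (95% interval -0.50 to 0.16). ETV4 measured 10.5, 20.8 and 15.4 CPM with vehicle and 16.4, 6.5 and 16.3 CPM with carmofur, for a log2 fold change of -0.24 (95% interval -0.90 to 0.43). Carmofur replicate 2 was the lowest library for both factors, and without it the ETV4 value was 0.10. PHLDA1 measured 304, 423 and 357 CPM with vehicle and 328, 288 and 381 CPM with carmofur, for a log2 fold change of -0.12 (95% interval -0.39 to 0.15). CCND1 measured 640, 549 and 549 CPM with vehicle and 689, 660 and 594 CPM with carmofur. It was the most deeply counted member, at 1846 to 4462 reads a library, and had the smallest standard error, 0.10 around a log2 fold change of 0.16. Its 95% interval ran from -0.052 to 0.37. The smallest adjusted p-value from edgeR over the 10 members was 0.999.

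The 10 genes did not rise and fall as 1 block over the 6 U251P libraries. Among the 45 pairs, Pearson's r of log2 CPM ran from -0.83, for DUSP6 with DUSP7, to 0.96, for ETV4 with ETV5, with a median of -0.0035 and 22 pairs above 0. The ETS factors and PHLDA1 varied together (r = 0.94 for ETV5 with PHLDA1 and 0.88 for ETV4 with PHLDA1), as did CCND1 with DUSP7 (r = 0.93), whereas CCND1 and PHLDA1 ran opposite (r = -0.78). These are descriptions over 6 libraries that include both treatments and share their normalization. Searched among 8126 genes with a mean of at least 10 CPM, the patterns most like DUSP6 were those of TKT (r = 0.995), TTC26 (r = 0.992) and REX1BD (r = 0.991). FABP7 (r = 0.984), ZMIZ1 (r = 0.984) and NBL1 (r = 0.981) were closest to SPRY4, and TBX3 (r = 0.993), RHOB (r = 0.985) and NAA15 (r = 0.985) to CCND1. No other member was among these nearest genes.

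In U251T, DUSP6 rose with carmofur and no other member passed the unpaired test. It measured 163, 219 and 208 CPM with vehicle and 271, 387 and 338 CPM with carmofur, so that every carmofur library was above every vehicle library. The fold was 1.69 (log2 fold change 0.75, standard error 0.16, 95% interval 0.41 to 1.10, n = 3 against 3), with a Benjamini-Hochberg adjusted p-value of 0.00347 from edgeR over 7204 genes. It remained past 0.05 in each of the 6 fits without 1 library, with log2 fold changes of 0.60 to 0.89 and adjusted p-values of 0.000838 to 0.0376. Behind these values stood 118 to 579 reads a library. This was 1 of the 7 members that could be tested. The test called 1231 of 7204 genes (17.1%), 640 of them higher (8.88%), so a single call among 7 is near the background share. The median log2 fold change of the 7 was -0.058, against 0.0098 over all genes tested, and before adjustment 3 of the 7 had a p-value under 0.05, as did 2153 of all genes (29.9%). In these libraries the astroglial marker sum, which is mostly VIM, and the fibroblast marker sum moved with carmofur as well, as given above. Their part in the changes in U251T was not tested.

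**Figure D2:**
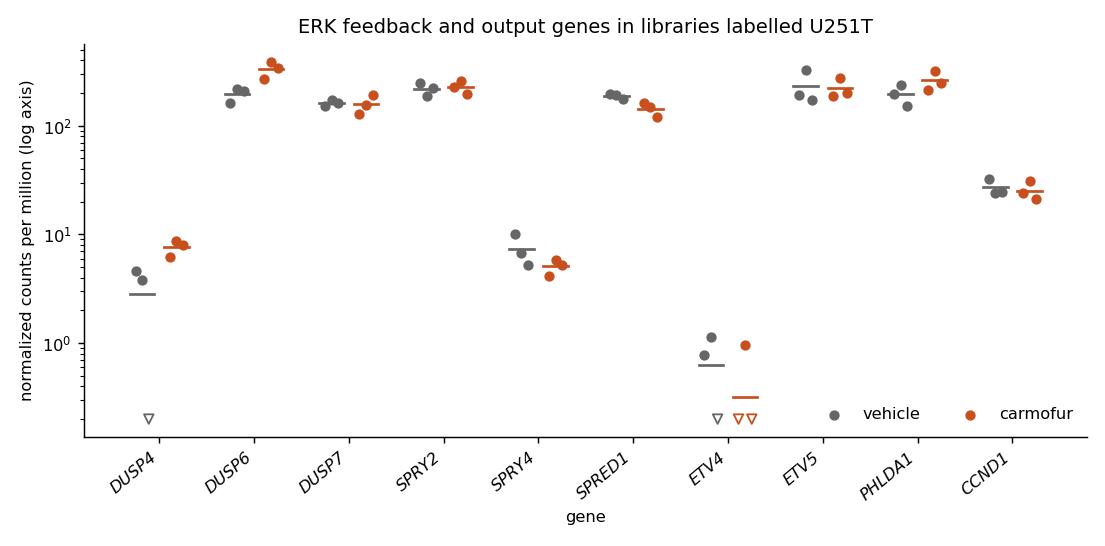
Normalized CPM (log axis) of the 10 genes in each of the 6 libraries labelled U251T. Points are libraries in replicate order, grey for vehicle and orange for carmofur, bars are means of 3, and open triangles at the foot of the axis are libraries with 0 counts. DUSP6 moved from a mean of 197 to 332 CPM with no overlap, whereas DUSP4, SPRY4 and ETV4 lay at or below 10.1 CPM.

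Because DUSP6 was the only member called by the unpaired test, its promoter is shown in part. RefSeq windows on GRCh38.p14, from 250 bases before to 50 after a transcript start, were matched for 6 of the 10 members (8 windows). The 250 bases before the start were searched on both strands for CGGAA, the core letters of many ETS-factor sites. DUSP6 (ENSG00000139318, chromosome 12, minus strand, 89347232 to 89353271) held it at 3 places, PHLDA1 at 2 and SPRY2 at 2 in 1 of its 3 windows, so 3 of 8 windows held it against 30.3% of all 35116 windows. The AP-1 letters TGACTCA, found in 4.2% of all windows, and the CRE letters TGACGTCA, found in 1.65%, were in 0 of the 8. The DUSP6 matches are given below, read on the strand of the gene, with the 5 matching letters in capitals. The first has the letters on the gene's own strand, and the others have them on the opposite strand and so read TTCCG. The RefSeq start of DUSP6 used here lies inside the GENCODE span given above, so the matches before it also fall within that span. The first 2 stretches overlap, and each holds the match of the other in small letters. These matches are positions of letters and do not show binding.
DUSP6, chr12:89352639-89352668: gcttatccggagCGGAAattcctttccgtt
DUSP6, chr12:89352628-89352657: gcggaaattcctTTCCGtttttgtgaatga
DUSP6, chr12:89352545-89352574: ggcaacagccccTTCCGcagcacgctcatt

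DUSP7 gave no call in U251T, and DUSP4 could not be tested there. DUSP7 measured 153, 171 and 162 CPM with vehicle and 128, 155 and 190 CPM with carmofur, with carmofur libraries on both sides of the vehicle range. Its log2 fold change was -0.071 (95% interval -0.43 to 0.28). DUSP4 had 6, 10 and 0 reads with vehicle and 6, 9 and 3 with carmofur, too few for the filter within U251T. Scaled to depth, these were 4.64, 3.77 and 0 CPM with vehicle and 6.21, 8.70 and 7.91 CPM with carmofur, each carmofur library being above each vehicle library. In a fit of all 12 libraries its log2 fold change was 1.01 with a 95% interval of -0.11 to 2.13 and an adjusted p-value from edgeR of 0.289.

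SPRED1 and PHLDA1 came closest to the threshold after DUSP6, in opposite directions. SPRED1 measured 197, 191 and 178 CPM with vehicle and 162, 148 and 121 CPM with carmofur, with all 3 carmofur libraries lower. The log2 fold change was -0.37 (standard error 0.16, 95% interval -0.70 to -0.040), the unadjusted p-value 0.0302 and edgeR's adjusted p-value 0.12. PHLDA1 measured 197, 237 and 151 CPM with vehicle and 212, 322 and 248 CPM with carmofur. The lowest carmofur library was below the highest vehicle library, and the log2 fold change was 0.40 (standard error 0.18, 95% interval 0.013 to 0.78) with an unadjusted p-value of 0.0437 and an adjusted p-value of 0.152 from edgeR. Without vehicle replicate 2 it was 0.55 with an adjusted p-value of 0.0382. Groups that do not overlap were seen for 2 of the 7 tested members, DUSP6 and SPRED1, and for 2368 of the 7204 genes (32.9%).

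The Sprouty genes, the ETS factors and CCND1 gave no call in U251T. SPRY2, abundant in these libraries, measured 245, 189 and 223 CPM with vehicle and 229, 257 and 195 CPM with carmofur, for a log2 fold change of 0.077 (95% interval -0.25 to 0.40). ETV5 measured 193, 323 and 172 CPM with vehicle and 187, 276 and 200 CPM with carmofur, for a log2 fold change of -0.078 (95% interval -0.52 to 0.37). Replicate 2 was the highest ETV5 library of both treatments. CCND1 had 8 to 64 reads a library and means of 27.1 ± 4.69 CPM with vehicle and 25.3 ± 5.09 CPM with carmofur (SD, n = 3), and its wide interval, -0.68 to 0.56 on the log2 scale, covers changes in both directions. SPRY4, at 2 to 18 reads a library, and ETV4, at 0 to 3 reads, could not be tested in U251T. A count of 0 allows up to 3 reads, which in these libraries is 1.13 to 7.91 CPM, and such a limit covers counting error only.

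**Figure D3:**
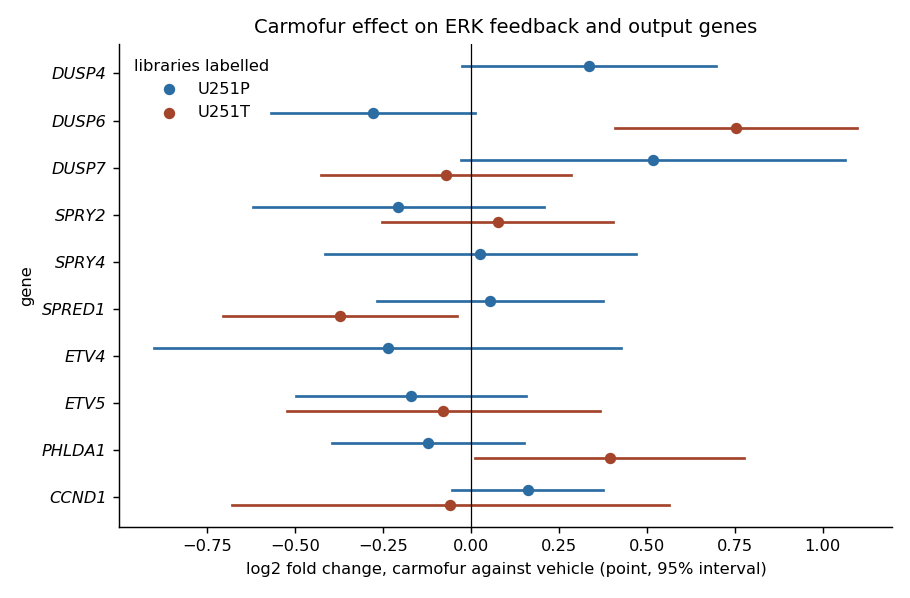
Log2 fold change of carmofur against vehicle (horizontal axis) with its 95% interval from edgeR for the 10 genes, in blue for U251P and in red for the 7 genes tested in U251T. Every U251P interval includes 0, and in U251T the DUSP6 interval runs from 0.41 to 1.10.

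The carmofur effect on DUSP6 differed between the labelled lines. The question here is whether a gene responded differently in the 2 sets of libraries, tested as the interaction of line and treatment over all 12. For DUSP6 the effect in U251T minus that in U251P was 0.96 on the log2 scale (standard error 0.24, 95% interval 0.47 to 1.46), with an adjusted p-value of 0.0147 from edgeR's quasi-likelihood test. DUSP6 was the only 1 of 10 members called, and 560 of 13070 genes were (4.28%). The call rested on single libraries. The adjusted p-value was 0.0745 without U251P carmofur replicate 2, 0.0622 without U251P vehicle replicate 3, 0.0787 without U251T carmofur replicate 2 and 0.0641 without U251T vehicle replicate 1, while the difference stayed between 0.78 and 1.11 in all 12 such fits. For DUSP7 the difference was -0.66 (standard error 0.31) with an adjusted p-value of 0.293, and it was -1.06 with 0.0406 without U251P vehicle replicate 1. For the other 8 members the difference ran from -0.84 for ETV4 to 0.67 for DUSP4, both with wide intervals. The labelled lines also differed in depth and in cell markers as given above, and the part of these in the DUSP6 difference was not tested.

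**Figure D4:**
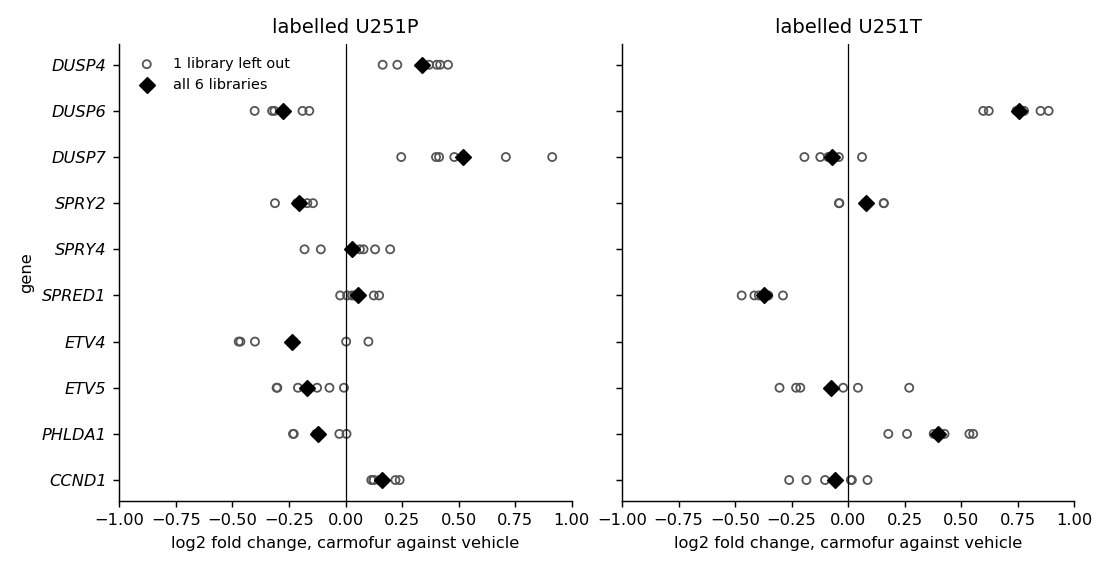
Log2 fold change of carmofur against vehicle (horizontal axis) for each gene with all 6 libraries of a line (black diamonds) and with 1 library left out in turn (open circles), U251P on the left and the 7 genes tested in U251T on the right. DUSP6 stays between 0.60 and 0.89 in U251T, and DUSP7 in U251P runs from 0.25 to 0.91.

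With vehicle alone, the members were split evenly between higher and lower levels in the libraries labelled U251T. All 10 differed by edgeR's test, 5 higher and 5 lower, where 10474 of 12047 genes were called (86.9%). The median log2 difference was -0.11 for the members and -0.33 for all genes tested, or -0.45 for all genes with RLE in place of TMM normalization, so values near these shifts depend on the scaling. With no filter on low counts the all-gene median was -1.54, over 25294 genes. The CPM below are on the scale of the 6 vehicle libraries normalized together. In bulk libraries such as these, fewer cells that express a gene, less RNA per cell and cells of another kind cannot be told apart. A difference between the labelled lines in the source of the reads, or in their assignment to genes, was not tested either. The values below are therefore differences in counts between libraries, and so is the order of genes in U251T.

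The inhibitors SPRY2, DUSP7 and SPRED1 had the largest positive differences. SPRY2 was at 14.0 ± 0.768 CPM in U251P and 212 ± 25.1 CPM in U251T (SD, n = 3), a log2 difference of 3.91 (standard error 0.17). DUSP7 was at 21.4 ± 8.83 and 157 ± 10.2 CPM, a log2 difference of 2.87, and SPRED1 at 30.3 ± 2.62 and 183 ± 10.0 CPM, a log2 difference of 2.61. DUSP6 was higher by 1.30 and ETV5 by 0.72 on the log2 scale. ETV5 was the exception among the 10 in stability, since without U251T vehicle replicate 2 its difference was 0.25 with an adjusted p-value of 0.158 from edgeR.

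The lower members were CCND1, ETV4, DUSP4, SPRY4 and PHLDA1. CCND1 was at 596 ± 60.2 CPM in U251P and 26.3 ± 4.38 CPM in U251T, a log2 difference of -4.50 (standard error 0.18), and it went from first to seventh place among the 10. DUSP4 was at 35.9 ± 9.77 and 2.73 ± 2.39 CPM, a log2 difference of -3.39. SPRY4 differed by -1.56 and PHLDA1 by -0.93. ETV4 had 54, 70 and 79 reads in the U251P vehicle libraries and 1, 3 and 0 in those of U251T, and no fold is given at such counts. Paralogs lay on opposite sides: SPRY2 against SPRY4, ETV5 against ETV4, and DUSP6 and DUSP7 against DUSP4. Normalized among the 6 U251T libraries instead, as in the plot of levels in U251T, the order of vehicle means was ETV5 at 229, SPRY2 at 219, DUSP6 at 197, PHLDA1 at 195 and SPRED1 at 189 CPM, with overlapping ranges between neighbours, then DUSP7 at 162, CCND1 at 27.1, SPRY4 at 7.38, DUSP4 at 2.81 and ETV4 at 0.636 CPM.

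Some of these genes overlap others in the GENCODE annotation of GRCh38, and it is not stated whether the counting used strand. ETV4 lies within DHX8 on the opposite strand, which had 34 to 236 reads a library, and CCND1 shares its end with LTO1 on the opposite strand, at 0 to 97 reads. ETV5 shares part of its span with DGKG on the same strand, at 0 to 119 reads. An antisense gene over DUSP6, AC024909.2, had 0 or 1 read in each library.

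The wider pathway was read through 6 lists holding 131 further genes. In U251P, 106 of the 131 were tested and 0 were called, as among all genes (0%), with 7 under 0.05 before adjustment and a median log2 fold change of 0.015. None of the most abundant genes of each list was called, and their fitted changes went both ways. GRB2, the adaptor that links receptors to RAS activation, was at 194 ± 2.28 CPM with vehicle and 190 ± 1.07 CPM with carmofur (SD, n = 3), and the phosphatase PTPN11 was at 184 ± 12.5 and 171 ± 7.36 CPM. The receptor MET was at 160 ± 12.6 and 153 ± 16.1 CPM, and the ligand FGF2 at 98.2 ± 13.7 and 84.8 ± 13.4 CPM. Of inhibitors outside the 10, the RAF-binding protein PEBP1 was at 360 ± 34.8 and 359 ± 37.3 CPM. ERRFI1, which blocks the EGF receptor kinase, was at 161 ± 42.0 and 128 ± 37.6 CPM. IER3 and CCN2 led the immediate early genes, with log2 fold changes of -0.19 and 0.089. Among the other outputs PLAU, which encodes the urokinase plasminogen activator, had a log2 fold change of 0.33. Of the 21 other outputs tested, 15 had a higher and 6 a lower fitted level, with a median of 0.15. Among the partners of cyclin D, CDK6 was at 187 ± 18.6 and 202 ± 8.48 CPM, and CDK2, a partner of the E and A cyclins, at 158 ± 18.8 and 147 ± 12.5 CPM.

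In U251T, 18 of the 81 tested genes were called, 12 higher and 6 lower. That is 22.2%, set beside 17.1% of all genes, and their median log2 fold change was 0.011. Each kept its direction under RLE normalization, DESeq2, no filter and the fit of all 12 libraries, but 16 of the 18 remained called under DESeq2, where EGR1 and CDK6 did not. Likewise 16 remained with no filter and in the fit of all 12 libraries, where CCN1 and CDK6 did not. The receptors and ligands gave 0 calls among 7 tested, of which 3 were under 0.05 before adjustment, as were 29.9% of all genes. FGFR1, a receptor for fibroblast growth factors, was at 141 ± 17.0 CPM with vehicle and 185 ± 6.49 CPM with carmofur (adjusted p-value 0.0772 from edgeR), and MET at 104 ± 15.0 and 99.9 ± 2.46 CPM.

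The cascade itself gave 2 calls among 19, both higher, where 17.1% of all genes were called and 8.88% were called higher. RPS6KA5, a nuclear kinase activated by ERK and p38, rose from 20.8 ± 3.28 to 73.6 ± 16.5 CPM, a log2 fold change of 1.87. GAB1, a docking protein of receptor tyrosine kinases, rose from 4.19 ± 1.38 to 24.4 ± 5.77 CPM, on 3 to 31 reads a library. Of the 9 other inhibitors tested, 2 were called, beside the same 17.1% of all genes. DUSP1, a phosphatase of p38, JNK and ERK, rose by 1.40 on the log2 scale, from 50.9 ± 13.5 to 131 ± 29.7 CPM. ERRFI1 fell from 88.3 ± 8.07 to 45.1 ± 6.48 CPM, a log2 fold change of -0.95. Feedback inhibitors called in U251T by the unpaired test were thus DUSP6 and DUSP1 upward and ERRFI1 downward.

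Immediate early genes, which respond first to ERK and to stress kinases, gave 4 calls among 16, all higher. Over all genes 17.1% were called and 8.88% were called higher. Of the 16, 10 had a negative fitted value, and the list median was -0.056. Before adjustment 7 had an edgeR p-value under 0.05, as did 29.9% of all genes. Among these 7, MYC (-0.67), FOSL2 (-0.59) and KLF6 (-0.45) were lower in every carmofur library than in any vehicle library, but were not called. With the replicate number as a block, 9 genes of the list were called, where 2140 of 7683 genes were. ATF3, a stress-induced transcription factor, rose by 2.06 on the log2 scale, CCN2 by 1.20, EGR1 by 0.91 and CCN1 by 0.51. EGR1 was called in 4 of the 6 fits without 1 library and CCN1 in 2. Among 16 other outputs 2 were called, beside the same 17.1% of all genes. The collagenase gene MMP1 rose by 2.74 on 4 to 84 reads a library, and PLAU by 0.78.

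The G1 regulators held the most calls of the 6 lists, 8 of 14 tested, with 3 higher and 5 lower, where 17.1% of all genes were called. The lists were chosen with earlier results of these data known, so this rank is a description only. CDKN1A, which encodes the CDK inhibitor p21, rose from 35.5 ± 12.7 to 167 ± 33.9 CPM (log2 fold change 2.16). CCND2, the cyclin D gene that was abundant in U251T, rose from 535 ± 93.1 to 1046 ± 105 CPM (0.97), while CCND1 had a fitted value of -0.058. E2F1, a transcription factor of S phase entry, fell from 288 ± 53.3 to 109 ± 16.1 CPM (-1.40), and CDK2 fell from 107 ± 27.9 to 25.9 ± 5.38 CPM (-2.08). CDKN2C, an inhibitor of CDK4 and CDK6, fell from 30.01 ± 5.13 to 3.66 ± 3.18 CPM (-2.73), on 0 to 6 reads with carmofur.

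**Figure D5:**
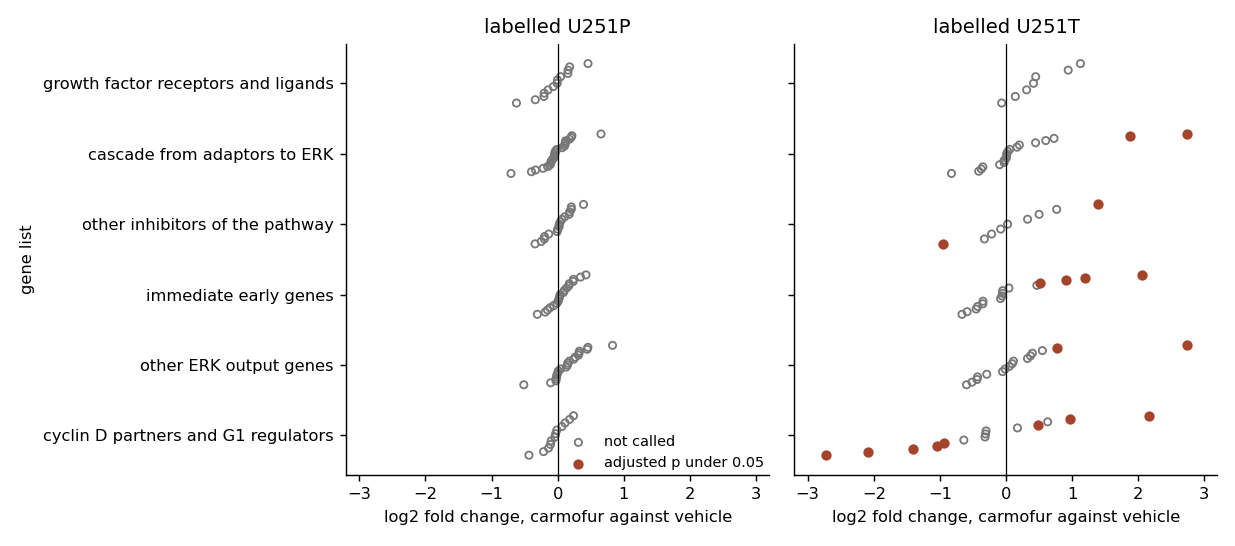
Log2 fold change of carmofur against vehicle (horizontal axis) of each tested gene in the 6 lists, U251P on the left (106 genes) and U251T on the right (81 genes). Within a list, genes are spread by rank. Filled red points have an edgeR adjusted p-value under 0.05, which 0 genes have in U251P and 18 in U251T.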

How the data were processed

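RNA of 12 samples was made into libraries with the QuantSeq 3′ FWD kit, and the authors trimmed and mapped single-end reads with Lexogen's BlueBee pipeline on hg38 (build from the submitters' processing notes). The authors deposited unnormalized whole-number counts of reads, 1 row for each Ensembl gene identifier. The counting tool, annotation release and use of strand and of molecular identifiers are not given in the sources used here. Reads without molecular identifiers are not independent molecules.

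Counts were analysed as deposited in R (version 4.3.3) with edgeR (version 4.0.16), using TMM factors, filterByExpr (minimum count 10), the quasi-likelihood test and Benjamini-Hochberg adjustment at 0.05 over all genes that passed. CPM use TMM library sizes of the libraries compared. Carmofur was compared with vehicle in each line on 6 libraries, the interaction of line and treatment on 12, and the lines on the 6 vehicle libraries. An exact permutation test of 3 against 3 cannot reach 0.05. Alternatives were DESeq2 (version 1.42.0), RLE normalization, no filter, the replicate number as a block, all 12 libraries in 1 fit and each library left out. The tests were tested on simulated data. Positions come from GENCODE, and Python (version 3.11.15), pandas (version 2.3.3) and matplotlib (version 3.10.9) made the tables and figures.

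Every pair of replicates differed beyond sampling noise (chi-square per degree of freedom 1.65 to 10.6), so each was counted as 1 sample. The study's methods state that experiments were done in biological triplicate with further technical replicates, and the labels only number the libraries. If these are not separate cultures, p-values measure a spread that may be technical. The members and lists were chosen with earlier results of these data known. Named were all members, list genes with an adjusted p-value under 0.05 (at most 5 a list, by p-value), otherwise the 2 most abundant genes of a list, and the 3 genes most like DUSP6, SPRY4 and CCND1. Genes in the check of cell markers, MYC and FOSL2, and CDK6 and KLF6 in U251T, were named beside this rule. The values of 1 list gene that the rule would name are not reported here.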

Additional observations from a re-analysis of the deposited data

Results flagged for a closer look

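Among the 10 members and the 109 list genes tested, 1 and 9 had a carmofur effect that differed between the labelled lines by the interaction test of edgeR (adjusted p-value under 0.05), as did 560 of all 13070 genes (4.28%). Values are given here as the effect in U251T minus that in U251P on the log2 scale. DUSP6 had a difference of 0.96. The others belong to the wider pathway lists. CDKN1A differed by 2.09, with 21.2 ± 9.26 and 21.2 ± 7.58 CPM with vehicle and carmofur in U251P (SD, n = 3). ATF3 differed by 2.31 and CCN2 by 1.07, and the difference was 1.69 for RPS6KA5 and 2.49 for GAB1. CDK2 differed by -2.07, E2F1 by -1.71 and RBL1, a pocket protein related to RB1, by -1.10. KLF6, a growth-factor-induced transcription factor, differed by -0.93, although it was called in neither line alone, with log2 fold changes of 0.43 in U251P and -0.45 in U251T. In fits without 1 library, RPS6KA5, ATF3, E2F1, CDK2 and CDKN1A were called in 12 of 12, CCN2 and RBL1 in 10, and DUSP6, GAB1 and KLF6 in 8.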

How the results depend on the processing

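In U251P, 0 members were called under every alternative tried, and in U251T and in the difference between lines DUSP6 kept its direction in all. The replicate block changed some calls: with the replicate number as a block, 3 members were called in U251T (SPRED1 -0.38, adjusted p-value 0.0276 from edgeR, and PHLDA1 0.38, 0.013, beside DUSP6) and 2 in the difference between lines (DUSP7 -0.67, 0.0327). Over all genes it called 1 in U251P, 2140 against 1231 in U251T, and 1154 against 560 in the difference. Deviations of same-numbered libraries correlated at 0.21, -0.033 and 0.27 in U251P and 0.085, 0.34 and 0.082 in U251T, so the numbers were not taken as pairs. Without the filter, 19 genes were called in U251P, SPRY2 in U251T was at -0.000785, and the median member difference between lines in vehicle was -0.47.
Leaving out 1 library at a time, 1 to 2 members were called in U251T and 0 to 2 in the difference. The median over members ran from -0.19 to 0.064 in U251P, from -0.38 to 0.0075 in the difference and from -0.48 to -0.0078 between lines in vehicle. Signs turned for ETV4 (-0.47 to 0.10), SPRY4 (-0.18 to 0.20), PHLDA1 (-0.23 to 0.0045) and SPRED1 (-0.024 to 0.15) in U251P, for DUSP7 (-0.19 to 0.061), ETV5 (-0.30 to 0.27), CCND1 (-0.26 to 0.085) and SPRY2 (-0.041 to 0.16) in U251T, and for ETV5 in the difference (-0.24 to 0.41), none of them called. The all-gene counts were 837 to 1195 in U251T and 367 to 721 in the difference. DESeq2 called 866 of 17843 genes in U251T, a larger set that did not pass through the edgeR filter on low counts. The cause of these changes was not tested. Fewer reads limit U251T, where 3 members could not be tested.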
